A study of Homo sapiens with 47 samples.

Results

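The genes followed here encode the nuclear lamins (*LMNA*, *LMNB1*, *LMNB2*), proteins of the inner nuclear membrane (*LBR*, *TMPO*, *EMD*, *SUN1*, *SUN2*) and the 2 giant nesprins of the outer membrane (*SYNE1*, *SYNE2*). They were picked by gene symbol, without use of any measured value, and make up 10 of the 57507 genes in the expression table. All 10 had a mean FPKM (fragments scaled for transcript length and for the total mapped in the library) of at least 1 over the libraries of every comparison, so none was lost to the filter on low values.

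Lamins are intermediate filament proteins that build a mesh beneath the inner nuclear membrane, and nuclear pore complexes (NPCs) are anchored in this mesh. Emerin (*EMD*), lamina-associated polypeptide 2 (*TMPO*) and the lamin B receptor (*LBR*) tie chromatin and lamina to the membrane, whereas SUN proteins grip the KASH tails of nesprins and so link the nucleus to the cytoskeleton through the LINC complex. B-type lamins are made by nearly every cell, while A-type lamin is scarce in many blood and stem cells and abundant in stiff or differentiated tissues.

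RNA was sequenced from HAP1, a near-haploid human line that came from a chronic myeloid leukemia, and from HCT116, a near-diploid human colorectal carcinoma line. The 32 HAP1 libraries came in sets of 4, from unedited wild-type cells (WT), a line given the Cas9 vector with no guide RNA (EV), and 6 clones (C1–C6) in which Cas9 and a pair of guide RNAs had cut *NUP58*, a gene of the NPC. Each clone grew from 1 sorted cell, was picked among the smallest viable colonies and was harvested at passage 1. The 15 HCT116 libraries were 4 of a single puromycin-selected clone with mutations in exon 4 of both *NUP58* alleles, and 11 unedited controls: 2 WT, 3 EV1, 4 EV2, and 2 libraries whose title and genotype disagree but which both labels call unedited. The HAP1 replicates were described as independent experiments. The HCT116 replicates were called technical in one place and biological in another, so p-values within HCT116 may measure technical spread only.

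FPKM summed to 604053–654081 per HAP1 library and to 619798–721992 per HCT116 library, and relative depth ran from 0.753 to 1.16 and from 0.758 to 0.986. *NUP58* itself lay at 7.98–28.0 FPKM in the 24 clone libraries of HAP1 and at 34.3–50.4 in WT, with no overlap. In HCT116, 3 libraries labelled clone held 23.3–25.3 FPKM of *NUP58*, but the one labelled clone replicate 3 held 44.7 and the control labelled EV2 replicate 3 held 23.9, so both went against their labels. Results on HCT116 are therefore given with and without them. The summed FPKM of 7 colorectal epithelial markers was 378–939 in HCT116, although *LGALS4*, *VIL1* and *CEACAM5* stayed below 1 in every library, and 3.46–22.8 in HAP1. Of 7 blood lineage markers, 6 stayed below 1 in every HAP1 library, and the sum was 1.20–1.97 in EV against 14.2–21.4 in WT and 12.1–23.9 in the clones.

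FPKM were given per gene, so that transcripts of 1 gene cannot be told apart. This matters most for *LMNA*, whose reference transcripts for lamin A (ENST00000368300, 664 codons) and lamin C (ENST00000677389, 572 codons) share their first 566 codons and differ after them. Below, the last 30 coding bases with the stop codon are shown for lamin A, the B-type lamins and the nesprins, with the 4 codons before the stop in capitals (GENCODE release 44, GRCh38). In lamin A, lamin B1 and lamin B2 the first of these is a cysteine codon, the site at which the newly made protein is farnesylated. In the nesprins they close the KASH tail that SUN proteins hold.
LMNA, lamin A, chr1:156138755-156139106 across an intron, plus strand: cagagcccccagaacTGCAGCATCATGtaa
LMNB1, chr5:126836235-126836264, plus strand: gcatccaatagaagcTGTGCAATTATGtaa
LMNB2, chr19:2430911-2430940, minus strand: accacctcaagaggcTGCTACGTGATGtga
SYNE1, chr6:152122436-152122465, minus strand: agatacacgaatggcCCTCCTCCACTCtga
SYNE2, chr14:64225497-64225526, plus strand: aggtacaccaatgggCCACCCCCCACAtag

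In the 8 unedited HAP1 libraries *EMD* was the most abundant of these mRNAs, with 189 ± 9.45 FPKM (SD, n = 8). It was followed by *TMPO* with 152 ± 13.6, *LMNB1* with 128 ± 12.8, *LMNB2* with 102 ± 9.29, *LBR* with 84.2 ± 10.5, *LMNA* with 66.5 ± 13.3 and *SUN1* with 50.2 ± 6.51. Neighbours from *TMPO* to *SUN1* in this order overlapped in their ranges. *SUN2* (16.5 ± 3.54), *SYNE2* (6.53 ± 1.34) and *SYNE1* (1.75 ± 0.476) formed the low end without overlap. Mean FPKM of each B-type lamin was thus above that of the A-type lamin.

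The first question was whether the mRNA of these genes differed between *NUP58* mutant clones and WT. *LMNA* (ENSG00000160789, chromosome 1, 156082573–156140081, plus strand) encodes lamins A and C. Its FPKM in WT was 74.5, 86.2, 51.0 and 52.9 in replicates 1 to 4, and in EV 75.8, 75.9, 53.8 and 61.6. In C1 it was 38.0, 32.1, 32.4 and 32.6. In C2 it was 50.8, 27.7, 32.4 and 27.3, so that all libraries of C1 and C2 lay below all of WT, in C2 by a narrow margin. C3 held 55.95, 77.6, 50.6 and 46.6, and C4 held 55.7, 54.2, 38.5 and 44.4. In C5 the values were 31.7, 54.0, 33.5 and 34.6, and in C6 38.2, 42.5, 28.1 and 53.7. C3 overlapped WT broadly, and C5 and C6 each overlapped it through 1 library. Over the 24 clone libraries *LMNA* averaged 42.2 ± 12.4 FPKM (SD, n = 24) against 66.2 ± 17.1 in WT (SD, n = 4), and 18 of the 24 lay below every WT library.

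The mean of the 6 clones was lower than WT by 0.65 on the scale of log2(FPKM + 1) (SE 0.162, adjusted p = 0.0119 from limma over 13180 genes). This p-value rests on the spread of replicates within lines, not on the spread between clones, and on a single WT line. *LMNA* was the 1 of the 10 genes called in this comparison, and 6.6% of all tested genes were called (3.17% higher and 3.43% lower in the clones). The median log2 difference was 0.03 over the 10 genes and -0.02 over all tested genes. Against WT alone, the call for *LMNA* rested on the higher WT libraries. Its adjusted p from limma was 0.0751 without WT replicate 1 and 0.0902 without WT replicate 2, and an unmoderated test with unequal variances gave an adjusted p of 0.243. The mean of the 6 clones differed from EV by -0.69 (limma's adjusted p = 0.00695), and from WT and EV together by -0.67 (limma's adjusted p = 0.000279). In bulk RNA, less mRNA per cell and fewer cells with a high level cannot be told apart.

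Clone by clone, the log2 difference of *LMNA* from WT was -0.92 in C1 (SE 0.171, adjusted p = 0.0549 from limma), -0.93 in C2 (SE 0.229, adjusted p = 0.111), -0.77 in C5 (SE 0.212, adjusted p = 0.0582) and -0.69 in C6 (SE 0.219, adjusted p = 0.0707). It was -0.43 in C4 (adjusted p = 0.767) and -0.19 in C3 (adjusted p = 0.9995). None of these differences from WT passed 0.05 over all genes. Against EV, *LMNA* was called in C1, C2, C5 and C6 (limma's adjusted p = 0.00731, 0.0402, 0.0152 and 0.02005). There 14.4% of genes were called in C5 and 20.3% in C6. The share against EV is not given here for C1 and C2, so their calls cannot be set against it. In C1–C4 the replicate numbers paired clone and WT libraries. Blocked by number, *LMNA* was called in C1 (adjusted p = 0.0273, where 1.5% of genes were called) and in C4 (adjusted p = 0.0413, 2.43% of genes), while C2 stayed just outside (adjusted p = 0.0533, 1.23% of genes). Genes tested within 1 Mb of *LMNA* had median log2 differences of -0.05 in C1, -0.04 in C2, 0.04 in C5 and 0.09 in C6, far from its own difference in each of these clones.

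The B-type lamins moved little. *LMNB1* (ENSG00000113368, chromosome 5, 126776623–126837020, plus strand) lay at 82.7–164.6 FPKM in the clones and at 97.8–135.8 in WT, with a log2 difference of 0.05 (SE 0.128, adjusted p = 0.873 from limma). *LMNB2* (ENSG00000176619, chromosome 19, 2427638–2456959, minus strand) lay at 71.1–112.6 and at 84.7–107.4, with a difference under 0.01 in size (SE 0.111, adjusted p = 0.998). Neither gene was called in any single clone. As a result, the log2 ratio of *LMNA* to *LMNB1* FPKM was -1.65 ± 0.612 over the clone libraries (SD, n = 24), -0.93 ± 0.576 for WT, and -1.01 ± 0.269 for EV (SD, n = 4). It was lowest in C2 with -2.11 ± 0.525 and in C1 with -1.94 ± 0.271 (SD, n = 4 each).

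Over the 60 pairs of a gene and a clone, 3 were called: *EMD* in C5, and *LBR* and *SYNE2* in C6. Of all tested genes 0.479% were called in C1, 0.732% in C2, 0.0911% in C3 and 0.16% in C4, against 7.55% in C5 and 11.7% in C6, so C5 and C6 were also the clones with by far the most calls across the transcriptome. In the control comparison of EV with WT none of the 10 genes was called by limma or had an unadjusted p under 0.05, where 0.038% of all genes were called.

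*EMD* (ENSG00000102119, chromosome X, 154379273–154381574, plus strand) encodes emerin, a protein with a LEM domain that binds lamins and the chromatin factor BANF1. Its FPKM in WT was 190.2, 174.5, 190.1 and 205.6. In C5 it was 103.8, 96.0, 110.6 and 105.8, without overlap. The log2 difference was -0.86 (SE 0.0889, limma's adjusted p = 0.000584), and the exact permutation p was 0.0286, the smallest that 4 libraries against 4 allow. The other clones stayed at 137.6–215.9 FPKM, and their differences from WT ran from -0.20 in C6 to 0.03 in C1, none of them called.

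The fall of *EMD* in C5 was shared by its chromosomal neighbours. All 43 other genes tested within 1 Mb were lower in C5, with a median log2 difference of -0.85, and 28 of them were called. Of the genes nearest to *EMD*, named after their values were seen, *FLNA*, which encodes filamin A, differed by -1.08, the ribosomal protein gene *RPL10* by -0.59 and *ATP6AP1*, of the vacuolar ATPase, by -0.96. Within 5 Mb 60 of 62 genes were lower. Along chromosome X, medians in bins of 10 Mb lay between -0.68 and -0.87 from the bin that starts 70 Mb before *EMD* to the end of the chromosome. They were 0.08 and 0.24 in the bins 90–80 and 80–70 Mb before it and between -0.25 and -0.46 farther away. The median over 446 X-linked genes was -0.55, against 0.01 over all genes tested in C5. In the other 5 clones the median within 1 Mb of *EMD* lay between -0.08 and -0.01. The difference of *EMD* itself (-0.86) lay close to the median of its neighbours (-0.85). C5 also differed in its colorectal markers, whose sum was 17.7–22.8 FPKM against 3.46–7.90 in the other HAP1 lines, with *CDH1*, *LGALS4*, *VIL1* and *CEACAM5* below 1 in every C5 library. The part of this difference in the *EMD* value was not tested.

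**Figure D1:**
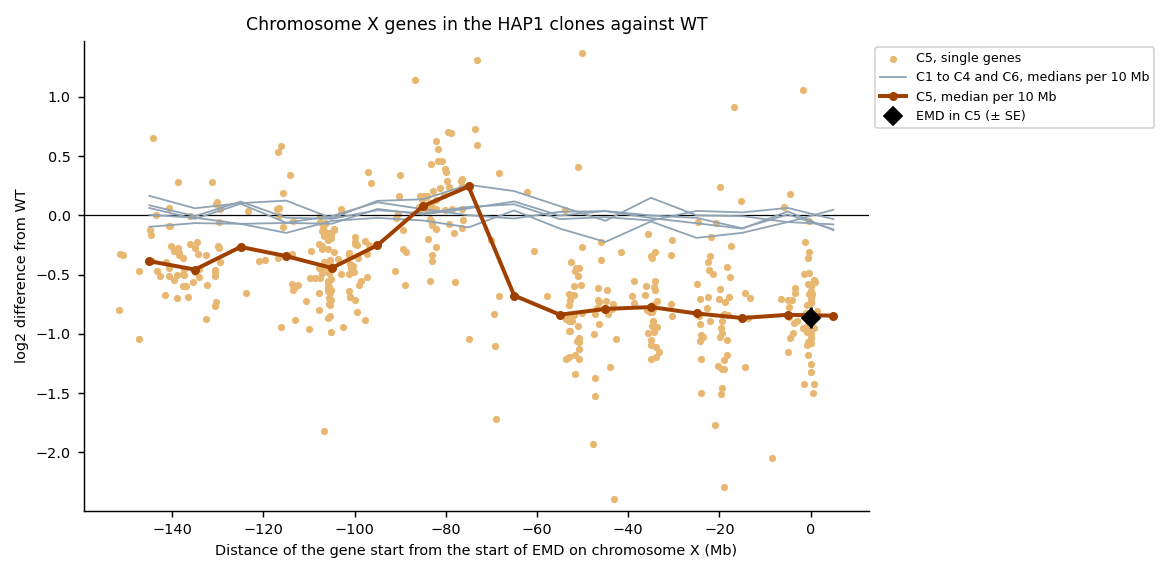
Log2 difference from WT of chromosome X genes (vertical axis) against the distance of their start from that of *EMD* (horizontal axis, Mb). Pale points are single genes in C5, the brown line gives the C5 median per 10 Mb, the grey lines give the same medians in the other 5 clones (bins of at least 5 genes), and the diamond is *EMD* in C5 with its standard error. From about 70 Mb before *EMD* onward, C5 lies between -0.68 and -0.87 and the other clones lie near 0.

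*LBR* (ENSG00000143815, chromosome 1, 225401502–225428925, minus strand) encodes the lamin B receptor, which binds B-type lamins and heterochromatin and is also a sterol reductase. It was 96.8, 68.2, 73.5 and 85.4 FPKM in WT and 126.5, 123.7, 123.1 and 101.4 in C6, without overlap. The log2 difference in C6 was 0.55 (SE 0.128, adjusted p = 0.0216 from limma; exact permutation p = 0.0286). It was above 0 in the other clones too, from 0.11 in C1 to 0.32 in C2, but was not called there. The mean of the 6 clones differed from WT by 0.26 (SE 0.112, adjusted p = 0.170 from limma), 13 of 24 clone libraries lay above all of WT, and 1 lay below all of WT. The call in C6 was lost without C6 replicate 1, 2 or 3 or without WT replicate 3 (adjusted p from 0.0506 to 0.0716), and in a test with unequal variances and no moderation (0.0914). The nearest tested genes on either side, named after their values were seen, were called higher in C6 as well, *ENAH* by 0.44 (adjusted p = 0.0144) and *DNAH14* by 0.55 (adjusted p = 0.0233). They were the only 2 called of 15 genes within 1 Mb, where 11.7% of all genes were called in C6. The median of the 15 was 0.12, and 5 of them were lower.

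*TMPO* (ENSG00000120802, chromosome 12, 98515579–98550351, plus strand) encodes the LAP2 proteins. It has the pseudogenes *TMPOP1* and *TMPOP2* and an antisense partner, *TMPO-AS1*, so its value is uncertain to the extent that reads were shared. WT held 161.8, 121.3, 147.0 and 153.2 FPKM, C5 held 123.0, 93.0, 124.4 and 120.5, and C6 held 130.3, 122.4, 134.4 and 102.9. Both clones were at the low end but reached into the WT range. The log2 difference was -0.34 in C5 (SE 0.128, adjusted p = 0.146 from limma) and -0.25 in C6 (SE 0.121, adjusted p = 0.223), and between -0.15 and -0.01 in the other clones. In C5 it was called against EV (-0.46, adjusted p = 0.0159, where 14.4% of genes were called), against WT and EV together (-0.40, adjusted p = 0.0115, 18.7% of genes) and with *ASNS*, which encodes asparagine synthetase and varied widely between libraries, as a covariate (-0.34, adjusted p = 0.0356, 20.7% of genes). In C6 limma called *TMPO* against EV (-0.37, adjusted p = 0.0194, 20.3% of genes) and against WT and EV together (-0.31, adjusted p = 0.0249, 23.3% of genes).

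Neither SUN gene was called against WT. *SUN1* (ENSG00000164828, chromosome 7, 816615–896435, plus strand) was 43.0–62.7 FPKM in WT and 44.7–75.6 in the clones, with a log2 difference of 0.08 (SE 0.116, adjusted p = 0.757 from limma). *SUN2* (ENSG00000100242, chromosome 22, 38733290–38794143, minus strand) was 13.1–23.9 in WT and 13.7–32.4 in the clones, with a difference of 0.25 (SE 0.168, adjusted p = 0.440). It was highest in C6, where the libraries held 21.6, 26.8, 22.1 and 30.6 FPKM and the difference was 0.54 (SE 0.191, adjusted p = 0.101). These lay above all of EV (13.5–18.05), and *SUN2* was called in C6 against EV (0.65, adjusted p = 0.00861, where 20.3% of genes were called), against WT and EV together (0.59, adjusted p = 0.0134, 23.3% of genes) and with *ASNS* as a covariate (0.50, adjusted p = 0.00501, 24.4% of genes). Exons of *SUN1* overlap *GET4*, and those of *SUN2* overlap *DNAL4* and, on the other strand, *GTPBP1*.

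The nesprin genes moved in opposite directions in C6. *SYNE2* (ENSG00000054654, chromosome 14, 63761899–64226433, plus strand), which encodes nesprin-2, was 5.12, 7.87, 7.27 and 8.35 FPKM in WT and 4.02, 3.87, 3.83 and 3.26 in C6. The groups did not overlap. The log2 difference was -0.77 (SE 0.164, adjusted p = 0.0155 from limma; exact permutation p = 0.0286), but without WT replicate 4 it was -0.69 and no longer called (adjusted p = 0.0542), nor was it called by the unmoderated test (0.0835). It was -0.31 in C4 and between -0.06 and 0.08 in the other clones. EV, at 4.404–6.70, lay between C6 and most of WT, so that against EV the mean of the 6 clones changed sign (0.07, against -0.17 from WT), while C6 remained lower (log2 difference -0.53, adjusted p = 0.0306 from limma).

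*SYNE1* (ENSG00000131018, chromosome 6, 152121687–152637801, minus strand), which encodes nesprin-1, was near the floor of these data at 2.52, 1.93, 1.86 and 1.15 FPKM in WT. C6 held 3.66, 3.49, 2.55 and 4.91, above every WT library by a small margin. The log2 difference was 0.70 (SE 0.214) with an adjusted p of 0.0640 from limma, outside the threshold. *SYNE1* was called in C6 without a trend (adjusted p = 0.0493), with all HAP1 libraries in one fit (0.0334, where 15.7% of genes were called), against EV (0.0172), against WT and EV together (0.00813) and with *ASNS* as a covariate (0.0196). The gene has an antisense partner, *SYNE1-AS1*. In C6, genes within 1 Mb had median log2 differences of 0.12 around *LBR*, where 2 of 15 were called, 0.14 around *SYNE2* and -0.16 around *SYNE1*, where none was called. Of all genes 11.7% were called in C6.

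The next comparison asked whether the 6 clones differed among themselves. limma's F test over the 24 clone libraries called 3 of the 10 genes, where 13.9% of all genes were called. They were *EMD* (F = 14.6, adjusted p = 9.73e-05), *SYNE2* (F = 7.29, adjusted p = 0.00538) and *SYNE1* (F = 4.34, adjusted p = 0.0492). *EMD* and *SYNE2* each rested on a single clone: without C5 the F of *EMD* was 0.881 (adjusted p = 0.846), and without C6 the adjusted p of *SYNE2* was 0.730. The F of *SYNE1* was 1.05 without C6 (adjusted p = 0.879), but its call was also lost without C4 (F = 3.82, adjusted p = 0.0971) or C5 (F = 4.80, adjusted p = 0.0790). *SYNE1* lost its call in 23 and kept it in 14 alternative settings, and its adjusted p without a single library reached from 0.0544 (C1 replicate 2) to 0.188 (C6 replicate 4) among the calls lost. *LMNA* did not pass (F = 3.86, adjusted p = 0.0725).

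Within a line, libraries differed widely in *ASNS*, with 32.5–450.6 FPKM over the HAP1 libraries. It was not called between clones and WT (log2 difference -0.08, SE 0.617, adjusted p = 0.961 from limma). After the mean of each line was removed, 8 of the 10 genes were related to *ASNS* over the 32 libraries (10 relations, 100000 permutations within lines). Such relations were widespread. In limma's fit of *ASNS* with a mean for each line 8 of the 10 were called, as were 59.6% of all genes. *SUN2* (Pearson's r = 0.790, Spearman's rho = 0.797), *SUN1* (r = 0.787, rho = 0.767) and *LMNA* (r = 0.632, rho = 0.699) rose with it. *EMD* (r = -0.858, rho = -0.836), *LMNB1* (r = -0.677, rho = -0.550), *TMPO* (r = -0.623, rho = -0.442), *LMNB2* (r = -0.591, rho = -0.424) and *LBR* (r = -0.560, rho = -0.436) fell. Adjusted permutation p-values were at most 0.0118 for r and 0.0432 for rho in these 8. Both the permutations and limma's fit treated libraries as independent within lines. Same-numbered libraries of EV and C1–C4 varied with those of WT, so these p-values may be too small. Without the 2 libraries farthest out in *ASNS*, r kept its sign in all 8 and ranged from -0.802 for *EMD* to 0.787 for *SUN2*. *SYNE1* (r = 0.240, adjusted permutation p = 0.313; rho = 0.303, adjusted permutation p = 0.173) and *SYNE2* (r = -0.003, adjusted permutation p = 0.990; rho = -0.054, adjusted permutation p = 0.806) showed no such relation. With *ASNS* as a covariate the spread within lines shrank and 10 of the 60 pairs were called, among them *LMNA* in C1, C2, C5 and C6 (adjusted p = 0.0161, 0.0288, 0.000251 and 0.000151, where 3.18%, 2.63%, 20.7% and 24.4% of genes were called). The mean of *LMNA* over the clones was then -0.64 (SE 0.126, adjusted p = 0.000818). The mean of *EMD* was called as well in this fit (-0.19, adjusted p = 0.0116), where 14.7% of all genes were called. It averages C5 (-0.86 without the covariate) with 5 clones between -0.20 and 0.03.

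The genes whose FPKM ran most closely with each member over the 32 HAP1 libraries, among 13180 genes and by Pearson's r on the log2 scale, were *NMRK1* (0.885) and *ADGRE5* (0.861) for *LMNA*, *UBTF* (0.903) and *SSRP1* (0.898) for *LMNB1*, and *PCNA* (0.906) and *SSRP1* (0.906) for *LMNB2*. *LBR* ran with *SLFN11* (0.869), and *TMPO* with *SPC25* (0.908) and *FBXO5* (0.896). *EMD* ran with *PRPS1* (0.933) and *FAM58A* (0.928), both on chromosome X. *SUN1* ran with *LRP5* (0.888) and *RNASET2* (0.878), and *SUN2* with *HLTF* (0.917) and *ADCK3* (0.910). The nesprins had the loosest partners, *NAALAD2* (0.796) and *MPI* (0.776) for *SYNE1*, and *FOXP4* (0.796) and *DXO* (0.751), both on chromosome 6, for *SYNE2*. These are descriptions, since the libraries share their lines and their differences in *ASNS*.

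Other genes of the envelope were followed as a list of 30, of which 27 were tested in HAP1. Over the mean of the 6 clones, 1 of the 27 was called (3.7%, against 6.6% of all genes), *CBX5*, which encodes the heterochromatin protein HP1 alpha. It was lower in the clones (29.1–45.4 FPKM, against 42.2–51.5 in WT) by 0.32 on the log2 scale (SE 0.095, adjusted p = 0.0364 from limma). C1–C5 had no called gene in this list. In C6, 1 gene rose and 5 fell, where 6.28% of all genes rose and 5.39% fell. They are named here after their values were seen. *TOR1AIP2*, an activator of torsins, rose from 8.46–10.8 FPKM in WT to 13.3–17.4. *NRM* (nurim) fell from 27.8–45.5 to 11.5–14.97 and *LEMD2*, a LEM domain relative of emerin, fell from 21.7–25.1 to 10.5–16.6. *PRR14*, which tethers heterochromatin to the lamina, fell from 21.2–26.4 to 12.99–16.4, and *CBX5* and the membrane remodelling gene *CHMP4B* fell by 0.39 and 0.36 on the log2 scale. None of the 6 overlapped WT, but they were picked as called on these same libraries, so this adds no support.

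*NRM* and *LEMD2* both lie on chromosome 6 and moved with their neighbours in C6. Of the genes within 1 Mb, 48 of 53 were lower around *NRM* (median log2 difference -0.81) and 34 of 37 around *LEMD2* (median -0.77), where *NRM* itself changed by -1.44 and *LEMD2* by -0.86. Around *PRR14*, *CBX5*, *CHMP4B* and *TOR1AIP2* the medians were -0.03, 0.00, -0.18 and 0.25. Of 10 proliferation genes, *AURKA* (-0.57) and *CDK1* (-0.31) were called lower over the mean of the 6 clones and none was called higher. Of all genes 3.43% were called lower and 3.17% higher there. The summed FPKM of the 10 was 900.6–1362 in the clone libraries and 1182–1346 in WT, and its part in the values above was not tested.

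In HCT116 the same question was asked of the libraries labelled clone. None of the 10 genes was called against the 11 controls, nor was any of the 12960 genes tested (0%). Of all genes 1342, and of the 10 none, had an unadjusted p under 0.05. With an unadjusted p under 0.01 and a fold over 2 limma gave 23 genes (0.177%). *LMNA* did not stand out there, at 181.5, 211.9, 226.2 and 167.6 FPKM in the libraries labelled clone and 157.5–240.1 in the controls (median 179.4), with a log2 difference of 0.06 (SE 0.116, adjusted p = 0.883 from limma). Without the library labelled clone replicate 3 the difference was -0.01.

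*SYNE2* was the exception once the library that went against its label was left out. The libraries labelled clone held 8.85, 8.91, 2.70 and 9.77 FPKM, and the controls 2.42–7.70 with a median of 4.64. Clone replicates 1, 2 and 4 thus lay above all controls, while the library labelled clone replicate 3 lay near the bottom and that labelled EV2 replicate 3 (7.03) near the top of the controls. The log2 difference of *SYNE2* was 0.48 with all libraries (SE 0.264, adjusted p = 0.538 from limma), 0.84 without clone replicate 3 (adjusted p = 0.0434, where 4.27% of genes were called), 0.89 without that library and EV2 replicate 3 (adjusted p = 0.0204, 7.62% of genes), and 0.90 without all libraries numbered 3 (adjusted p = 0.0313, 5.92% of genes). In the last case the exact two-sided permutation p was 0.00909 over 220 arrangements, the smallest that 3 libraries against 9 allow. *EMD* lay the other way and was not called. Clone replicates 1, 2 and 4 held 86.0, 89.7 and 76.7 FPKM, the library labelled clone replicate 3 held 109.1 and the controls 91.3–109.1, among them 103.4 in the library labelled EV2 replicate 3. Without all libraries numbered 3 the groups did not overlap (exact permutation p = 0.00909), with a log2 difference of -0.25 (adjusted p = 0.105 from limma). The permutation p-values of *SYNE2* and *EMD* are not adjusted over the 10 genes, and libraries were left out after their *NUP58* values were seen. How many of all genes lacked overlap in this setting is not given here.

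The sum of the 10 proliferation genes was 610.7–755.5 FPKM in clone replicates 1, 2 and 4 and 447–1309 in the controls other than EV2 replicate 3, and its part in the *SYNE2* value was not tested. *ASNS* was also lower in the libraries labelled clone (42.6–75.3 FPKM, against 66.8–349.5 in the controls). With *ASNS* as a covariate none of the 10 genes was called by limma with all libraries, nor was any of the 12960 genes tested (0%). That fit kept the library labelled clone replicate 3.

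The test of whether the clone effect differed between HAP1 and HCT116 called none of the 10 genes with all 47 libraries, where 1.8% of all genes were called and 3 of the 10 had an unadjusted p under 0.05. *LMNA* came nearest, with a difference of -0.71 between the effects (SE 0.215, adjusted p = 0.0703 from limma). Without clone replicate 3, the effects on *SYNE2* differed by -1.01 (SE 0.241, adjusted p = 0.00787), where 5.88% of genes were called. The difference of the HAP1 clones from WT in *SYNE2* was itself small and not called (-0.17, and 0.07 against EV).

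Finally, the unedited lines were set side by side. Unedited HAP1 and HCT116 differed in 9 of the 10 genes, where 68% of all genes were called (39.5% higher and 28.5% lower in HAP1), and the median of all 13538 genes tested was itself 0.10 higher in HAP1 on the log2 scale (0.17 after scaling to TPM and -0.02 after scaling by median ratios). *LMNA* differed most. The 8 HAP1 libraries held 51.0–86.2 FPKM and the 11 HCT116 libraries 157.5–240.1, without overlap, a log2 difference of -1.51 (SE 0.106, adjusted p = 2.26e-11 from limma). The log2 ratio of *LMNA* to *LMNB1* was -0.97 ± 0.418 in HAP1 (SD, n = 8) and 1.32 ± 0.531 in HCT116 (SD, n = 11), so that the prevailing lamin mRNA was *LMNB1* in the one and *LMNA* in the other.

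*EMD* was higher in HAP1 by 0.91 (SE 0.0503, adjusted p = 3.43e-13 from limma; 174.5–205.6 against 91.3–109.1 FPKM). *LMNB1* was higher by 0.75 (SE 0.143), *TMPO* by 0.40 (SE 0.125), *SYNE2* by 0.39 (SE 0.155) and *LBR* by 0.38 (SE 0.102). *SUN2* was lower in HAP1 by 0.62 (SE 0.119), *SUN1* by 0.58 (SE 0.101) and *LMNB2* by 0.35 (SE 0.135). *SYNE1* was not called, with 1.75 and 1.77 FPKM. *LMNB2* was not called after scaling to TPM (adjusted p = 0.102), nor without WT replicate 2 of HAP1 (0.0551) or the 2 controls with conflicting labels (0.0849). *SYNE2* was not called after scaling by median ratios (adjusted p = 0.135), without those 2 controls (0.0820), or without WT replicate 2, 3 or 4 of HAP1, EV2 replicate 1, EV1 replicate 2 or the control titled WT of HCT116 (0.0532 to 0.0692). With WT libraries alone (4 against 2), *LMNA*, *LMNB1*, *EMD*, *SUN1* and *SUN2* remained called. All 9 remained called without the HCT116 libraries numbered 3. In unedited HCT116 the order of levels was led by *LMNA* (189 ± 26.1 FPKM, SD, n = 11) and *LMNB2* (134 ± 32.8), all neighbours down to *LBR* overlapped, and *SUN2*, *SYNE2* and *SYNE1* were again lowest.

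Of the 29 envelope genes tested between the unedited lines, 9 were higher and 8 lower in HAP1, or 58.6% called, below the 68% of all genes. The 6 with the largest differences are named. *SYNE4*, which encodes nesprin-4 of epithelia, was 0.460–1.25 FPKM in HAP1 and 12.1–20.7 in HCT116 (log2 difference -3.28, adjusted p = 1.43e-16 from limma). *TOR1AIP2* was 7.87–10.8 and 27.1–37.3 (-1.72), and *SUN3*, a SUN protein of the testis, was listed at 0 in 5 of the 8 HAP1 libraries and at 0.899–6.93 in HCT116. *NRM* (1.31), *NEMP1* (1.08) and *CBX5* (0.96) were higher in HAP1. Each line is a single sample of its tissue, so tissue and line cannot be told apart.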

How the data were processed

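Paired-end RNA-seq of total RNA gave 47 libraries. The authors aligned reads to GRCh38.p13 with STAR, quantified genes with RSEM and deposited FPKM, without normalization between libraries. Tool versions and strand setting are not given in the sources used here. FPKM hides the number of fragments, so depth was read from the value of a single fragment, and a few abundant transcripts can lower all other values. All columns were used, and libraries were grouped by their labels.

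The 10 genes, the gene lists, *ASNS* as a covariate and the tests were chosen with earlier results of these data known. Every member is named in every comparison. Other envelope genes are named if called over the mean of the 6 clones (up to 8) or among the 6 largest called differences between unedited lines, and exceptions are marked. Values were analysed as log2(FPKM + 1), which understates changes of low genes. For each comparison, genes averaging at least 1 FPKM entered limma 3.58.1 (R 4.3.3; lmFit, eBayes with trend), with Benjamini-Hochberg adjustment over all of them and calls at an adjusted p under 0.05. Each clone and EV was compared with WT in fits of 8 libraries, and the mean of the 6 clones in a fit of 32. Standard errors of that mean came from the spread within lines and leave out the spread between clones. Tested on simulated data with 200 genes changed by 1.5 on the log2 scale, limma found 163 at 4 libraries against 4 with 8 false calls among 13164 genes, and 188 with 12 false calls among 12960 genes for the HCT116 design. The simulated libraries were independent, and the planted changes exceeded every difference of the 10 genes between a clone and WT. How often smaller changes would be found was not tested. Single genes were also compared by exact two-sided permutation tests.

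The replicate numbers were checked by correlating, across genes, deviations of same-numbered libraries from their group means. All 4 pairs with WT were over 0.1 for EV and C1–C4 (0.149 to 0.747), but not for C5, C6 (down to -0.375) or the HCT116 clone. Alternatives were another pseudocount (0.1), no filter, other scalings, no trend, a replicate block, *ASNS* as a covariate, other tests and thresholds, other controls, and leaving out clones or libraries. Positions and coding ends came from GENCODE release 44, which holds 56417 (98.1%) of the genes by identifier. Python 3.11.15, pandas 2.3.3, scipy 1.17.1 and matplotlib 3.10.9 were used. A gene whose values ran with *LBR* and a coding end are not reported here.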

Additional observations from a re-analysis of the deposited data

Results flagged for a closer look

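In 10 of the 100 gene and group combinations tested, 1 library lay far from the others by Dixon's criterion (gap over range), where chance flags about 1 in 20. The library of *LMNA* that stood apart was replicate 1 in C1 (38.0 FPKM, 0.926) and replicate 2 in C5 (54.0 FPKM, 0.867). For *LBR* it was replicate 2 in C1 (60.1 FPKM, 0.894) and replicate 4 in C6 (101.4 FPKM, 0.864), for *TMPO* replicate 2 in C5 (93.0 FPKM, 0.877) and for *EMD* replicate 2 in C1 (158.4 FPKM, 0.863). *SUN1* (69.8 FPKM, 0.902) and *SUN2* (32.4 FPKM, 0.949) both stood out in C3 replicate 2. *SYNE2* stood out in C3 replicate 4 (10.3 FPKM, 0.880) and in the HCT116 library labelled clone replicate 3 (2.70 FPKM, 0.870), the library in which *NUP58* also went against its label. The number 2 recurs in 6 of the 10, and replicate 2 held the highest *ASNS* of its line in 7 of the 8 HAP1 lines, all but C6.

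The effect against WT differed among the clones by limma's F test for *EMD* (adjusted p = 9.73e-05), *SYNE2* (adjusted p = 0.00538) and *SYNE1* (adjusted p = 0.0492), through C5 for *EMD* and C6 for *SYNE2*. The call of *SYNE1* was lost without C6, and also without C4 or C5.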

How the results depend on the processing

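The FPKM values carry no counts, so counting error could not be given, and *SYNE1* and *SYNE2*, at under 11 FPKM, rest on the fewest fragments. The mean of the 6 clones gave 1 called gene, but 2 with *ASNS* as a covariate and 0 under an unmoderated test with unequal variances or at an unadjusted p under 0.01 with a fold over 2, and 0 to 1 when single libraries were left out. Of the 60 pairs 3 were called, against 8 with a replicate block, 10 with *ASNS*, 11 against EV, 11 against WT and EV together, 8 with all HAP1 libraries in one fit, 1 under the unmoderated test and 0 with the fold threshold, and 2 to 4 without single libraries. The share of all genes called rose too, in C5 from 7.55% to 14.4% against EV, 18.7% against both controls and 20.7% with *ASNS*. In C6 it rose from 11.7% to 20.3%, 23.3% and 24.4% in the same settings. Differences among the clones gave 3, where 13.9% of all genes were called, but 5 with *ASNS*, 1 without C5 and 1 without C6 (2 to 4 without single libraries). The share of all genes under these alternatives is not given here. For the mean of the 6 clones that share rose from 6.6% to 14.7% with *ASNS*. The HCT116 clone gave 0, but 1 without the libraries labelled clone 3 and EV2 3 and 1 without all numbered 3 (0 to 1 without single libraries). The test between cell lines gave 0, but 1 with the replicate block (*LMNA*, adjusted p = 0.0222), 2 with *ASNS*, 1 without clone 3 and EV2 3 and 1 without all numbered 3 (0 to 1 without single libraries). The unedited lines gave 9, but 5 with WT libraries alone (7 to 9 without single libraries), and EV against WT gave 0 throughout. Shares of all genes are not given for the alternatives of the unedited lines. For the test between cell lines only the share without clone replicate 3 is given (5.88%). The replicate block also called *LMNA* among the clones (adjusted p = 0.0296), although the numbers do not pair all of these libraries. They do not pair those of C5, C6 or the HCT116 clone, so the block was also unsuited to its calls there and between cell lines. Of the 8 pairs called with it, *LMNA*, *TMPO* and *EMD* were in C5 and *LMNA*, *LBR* and *SYNE2* in C6. The cause of these shifts was not tested.

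Of 1281 combinations of a single gene's result and a setting, 1185 kept direction and call, 55 lost the call, 4 gained it and 37 changed sign. Every change of sign was of a gene not called. Over the mean of the 6 clones, *LMNB2* turned to 0.0105 with TPM, 0.0199 with median ratios, 0.00649 without C3, 0.00113 without C5 and 0.0152 without C6 (-0.0590 to 0.0541 without single libraries), *LMNB1* to -0.0542 against EV and -0.000222 against WT and EV (-0.0556 to 0.101), *SYNE2* to 0.0663 against EV, and *SYNE1* to -0.0589 without C6 (-0.0637 to 0.174). In HCT116 with *ASNS* as a covariate, *LMNA* turned to -0.00753, *TMPO* to -0.199, *SUN1* to 0.0845, *SUN2* to 0.0354 and *SYNE1* to 0.318, and without single libraries *LMNA* ranged from -0.0103 to 0.133 and *TMPO* from -0.0421 to 0.0854. Between the unedited lines *SYNE1* turned to -0.0581 with median ratios, -0.00489 without all numbered 3 and -0.0711 without the 2 controls with conflicting labels (-0.0342 to 0.0875 without single libraries).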
